A study of Mus musculus with 13 samples.

Results

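R-loops over 8 genes that mark or maintain the identity of neuroblastoma cells (Alk, Phox2a, Hand2, Gata2, Gata3, Isl1, Tbx2 and Lin28b) were examined by DRIP-seq in N2a cells, a mouse neuroblastoma line. The members were chosen by name, and a peak was assigned to a gene when it overlapped the gene's bounds extended by 1000 bases on each side (mouse genome build mm9, GENCODE vM1). These windows held 406 of the 314412 peaks in 12 peak lists, and 8 of the 37310 annotated genes. DRIP-seq pulls down hybrids of RNA and DNA with the S9.6 antibody after genomic DNA is cut with 5 restriction enzymes, and the annotated strand of a hybrid is not recorded. All libraries came from wild-type N2a cells, a single established line. The groups were cells treated with scramble siRNA (siScramble), with siRNA against DDX1 (siDDX1), a putative RNA helicase, or with siRNA against EXOSC3 (siEXOSC3), a subunit of the RNA exosome, with 3 untreated libraries each. For each group, 1 further library was made from DNA digested with RNase H, which degrades the RNA strand of hybrids. The input sample was not analysed here.

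In 12 of 12 lists the peaks are named for another treatment than the one in the sample title, by a single rotation. Under a siScramble title the peaks carry the name siDDX1, under a siDDX1 title the name siEXOSC3, and under a siEXOSC3 title the name siScramble. Groups below follow the titles, so every direction between groups depends on that choice, whereas a test across all 3 groups, or of RNase H digestion, has the same value either way. Per the study's methods, 3 plates were seeded for each condition, so p-values measure the spread between separately seeded plates of 1 cell line. Untreated libraries held 23882 to 42571 peaks and RNase H libraries 3811 to 8034. The number of fragments behind each peak summit could be recovered from its fold enrichment and p-value. The median was 9 to 13 fragments in untreated libraries and 12 to 14 in RNase H libraries. As a check of the labelled cell type, 11 of 15 neuroblastoma and sympathetic neuron markers, 6 of them members here, carried a peak in at least 1 untreated library and 7 in all 9, against 49.9% and 26.2% of protein-coding genes. Of the 11, Gata3, Isl1 and Chgb had a peak in only 1 library each. The marker lists were chosen with earlier results of these data known, and the shares were not matched on gene length. None of 6 hepatocyte and none of 6 skeletal muscle markers carried a peak in an untreated library, whereas 2 of 6 T cell markers, 1 of 6 keratinocyte markers and 2 of 6 cardiac markers did. Of these, the cardiac marker Nppa had a peak in 9 of 9 untreated libraries and the T cell marker Cd4 in 8 of 9. Lck had one in 1 library, and Lor and Tnnt2 in 2 each. Th and Dbh, which define noradrenergic cells, carried no peak in any of the 12 libraries.

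Neuroblastoma arises from sympathoadrenal precursors of the neural crest, and its adrenergic state rests on a set of transcription factors that bind each other's enhancers. PHOX2A, HAND2, GATA2, GATA3, ISL1 and TBX2 belong to that set, ALK is a receptor tyrosine kinase that is mutated or amplified in some of these tumours, and LIN28B is an RNA-binding protein that blocks maturation of let-7 microRNAs. R-loops form behind RNA polymerase, often near gene starts and ends, where nascent RNA pairs with its template strand.

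A peak was found in at least 1 untreated library for 8 of 8 members, against 49.9% of protein-coding genes and 36.6% of all genes. It was found in 9 of 9 for 5 members (Alk, Phox2a, Hand2, Gata2 and Lin28b), against 26.2% of protein-coding genes and 18.1% of all genes. These shares were not matched on gene length, and the members were chosen with earlier results of these data known. With a −log10 q of at least 5, 7 members had a peak in at least 1 untreated library, and with equal peak numbers per library 6 did. The share over all genes was not counted in those settings. Gata3 and Isl1 carried their single peak in siEXOSC3 replicate 3, and Tbx2 carried peaks in 7 of 9 libraries. By the share of its window covered by peaks, averaged over the 9 untreated libraries, Phox2a was highest at 70.9% ± 10.7 (SD, n = 9). Hand2 followed at 64.9% ± 7.37, Gata2 at 48.1% ± 16.1 and Tbx2 at 13.5% ± 9.68 (SD, n = 9 each). Alk had 1.96% ± 1.52, Lin28b 1.20% ± 0.402, Isl1 0.672% ± 2.01 and Gata3 0.0871% ± 0.261 (SD, n = 9 each). The ranges of Phox2a (54.7% to 85.4%) and Hand2 (52.7% to 77.5%) overlapped, as did those of Hand2 and Gata2 (18.6% to 67.1%), so neighbours at the top of this order were within each other's spread. In covered bases the order was different, since the long Alk gene came first with 14432 ± 11182 bases (SD, n = 9).

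**Figure D1:**
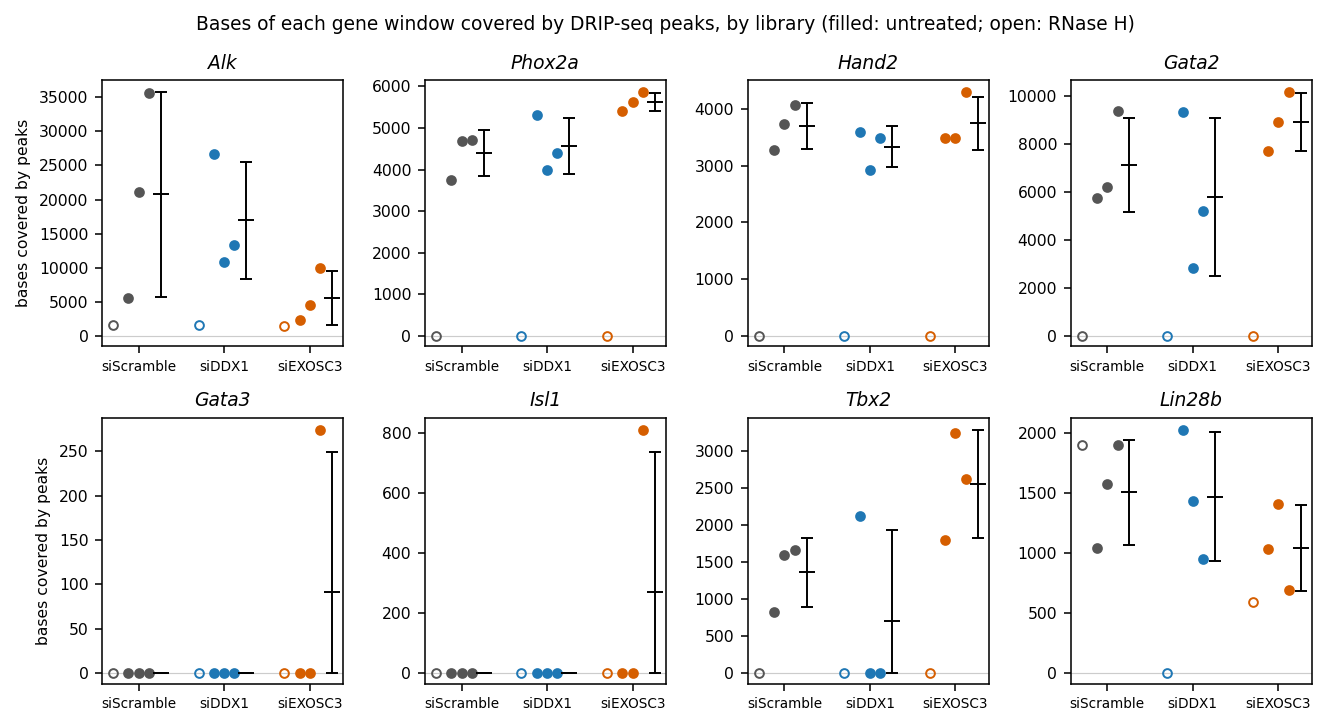
Bases of each gene window covered by peaks (y axis, linear, one scale per gene) in siScramble, siDDX1 and siEXOSC3 libraries by title. Filled points are the 3 untreated libraries, open points the RNase H library, and the black mark and bars the mean ± SD of the untreated libraries, with lower bars ended at 0. The 3 siEXOSC3 libraries lie between 2326 and 10015 bases at Alk and between 5407 and 5852 at Phox2a.

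The 8 genes also differ in the sequence just before the gene start. The 200 bases upstream of 6 members are shown to set genes with a peak there beside genes without one, 5′ to 3′ on the strand of the gene, with CG dinucleotides in capitals.
Lin28b (chr10:45206202-45206401, minus strand): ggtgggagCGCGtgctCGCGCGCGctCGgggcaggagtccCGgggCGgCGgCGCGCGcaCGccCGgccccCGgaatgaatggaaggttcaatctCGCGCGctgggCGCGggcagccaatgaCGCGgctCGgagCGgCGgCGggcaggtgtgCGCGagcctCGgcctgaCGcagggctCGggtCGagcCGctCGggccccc
Phox2a (chr7:108966627-108966826, plus strand): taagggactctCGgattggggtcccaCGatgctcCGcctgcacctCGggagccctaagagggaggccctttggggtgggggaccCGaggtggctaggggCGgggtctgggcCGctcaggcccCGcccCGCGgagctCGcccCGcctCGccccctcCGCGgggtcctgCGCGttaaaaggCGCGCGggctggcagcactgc
Alk (chr17:72953050-72953249, minus strand): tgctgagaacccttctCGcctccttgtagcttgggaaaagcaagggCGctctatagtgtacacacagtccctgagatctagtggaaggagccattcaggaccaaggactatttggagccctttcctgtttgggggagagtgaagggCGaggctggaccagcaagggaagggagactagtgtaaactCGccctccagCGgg
Hand2 (chr8:59799580-59799779, plus strand): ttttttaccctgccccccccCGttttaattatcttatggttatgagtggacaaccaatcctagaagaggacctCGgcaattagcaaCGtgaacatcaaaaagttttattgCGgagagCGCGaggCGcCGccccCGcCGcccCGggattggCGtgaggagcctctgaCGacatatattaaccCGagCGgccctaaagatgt
Isl1 (chr13:117099897-117100096, minus strand): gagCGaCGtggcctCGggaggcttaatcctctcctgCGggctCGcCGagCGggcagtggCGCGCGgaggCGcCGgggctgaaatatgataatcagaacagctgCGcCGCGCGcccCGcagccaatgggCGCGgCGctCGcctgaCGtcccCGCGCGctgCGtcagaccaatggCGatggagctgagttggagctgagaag
Gata3 (chr2:9811662-9811861, minus strand): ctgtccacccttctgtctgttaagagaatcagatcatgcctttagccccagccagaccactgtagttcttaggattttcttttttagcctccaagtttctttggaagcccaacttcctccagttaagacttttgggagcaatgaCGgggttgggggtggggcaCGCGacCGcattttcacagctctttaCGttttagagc

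Lin28b and Isl1 are both rich in CG here, yet their calls were opposite. Over these 200 bases, Lin28b had 78.5% GC and a ratio of observed to expected CG of 1.16, higher than or equal to 98.0% of protein-coding genes, and a peak lay within 1000 bases of its gene start in 9 of 9 untreated libraries. Isl1 had 69.0% GC and a ratio of 1.15, higher than or equal to 97.7% of genes, and no peak lay within 1000 bases of its gene start in any of the 12 libraries. Phox2a (74.0% GC, ratio 0.733), Alk (55.5% GC, ratio 0.332) and Hand2 (52.5% GC, ratio 1.09) each had a peak within 1000 bases in 9 of 9 libraries, whereas Gata3 (48.5% GC, ratio 0.426) had none. Gata2 (67.0% GC, ratio 0.802) had one in 7 of 9 and Tbx2 (73.5% GC, ratio 0.777) in 6 of 9. Over the 200 bases themselves a peak lay in 8 of 9 untreated libraries for Lin28b, 9 for Phox2a and 6 for Alk. It lay there in 0 of 9 for Hand2, Isl1 and Gata3. The median over 22380 protein-coding genes was 55.5% GC and a ratio of 0.518.

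Alk is read on the minus strand of chr17:72218782-72953049, a gene of 734268 bases. In siScramble libraries its window held 12, 40 and 53 peaks covering 5537, 21096 and 35584 bases. In siDDX1 libraries it held 41, 22 and 30 peaks covering 26689, 10843 and 13313 bases. In siEXOSC3 libraries it held 3, 10 and 24 peaks covering 2326, 4487 and 10015 bases. The siEXOSC3 libraries were thus below every siDDX1 library but overlapped siScramble replicate 1. The siScramble mean was 20739 ± 15027, the siDDX1 mean 16948 ± 8526 and the siEXOSC3 mean 5609 ± 3965 (SD, n = 3 each), and the exact permutation test of the F statistic over 280 splits gave p = 0.232 (adjusted p = 1). Scaled to 10 kb of each library's total peak coverage, the siScramble mean for Alk was 5.28 ± 2.87 bases, the siDDX1 mean 5.18 ± 0.619 and the siEXOSC3 mean 1.61 ± 0.859 (SD, n = 3 each).

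Every siDDX1 library exceeded every siEXOSC3 library at 1 of the 8 members, Alk, and at 2.44% of the 13466 genes tested. With the same number of peaks taken from each library (23882, the highest by q-value), Alk held 13625 ± 7965, 12421 ± 3796 and 2910 ± 805 bases in siScramble, siDDX1 and siEXOSC3 (SD, n = 3 each), with an exact permutation p of 0.0964 (adjusted p = 0.843). No member passed an adjusted p of 0.05 across the groups, as no gene of the 13466 did (0%), and no member had an unadjusted exact permutation p under 0.05, against 2.93% of the genes tested.

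Of 235 Alk peaks in untreated libraries, 218 had their summit in an intron, 7 in a coding exon, 6 upstream and 4 downstream of the gene. Their median fold enrichment was 5.18 (3.37 to 12.01) and their median summit rested on 8 fragments (5 to 23), against a median fold of 5.67 over all 298649 untreated peaks. Merged across the 9 libraries they formed 97 regions, of which 52 were called in 1 library, 23 in 3 or more and 1 in all 9. Over all 8 members, 61 of 128 regions (47.7%) were called in 1 library and 9 (7.03%) in 9, against 45.3% and 10.7% of all 69497 regions.

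**Figure D2:**
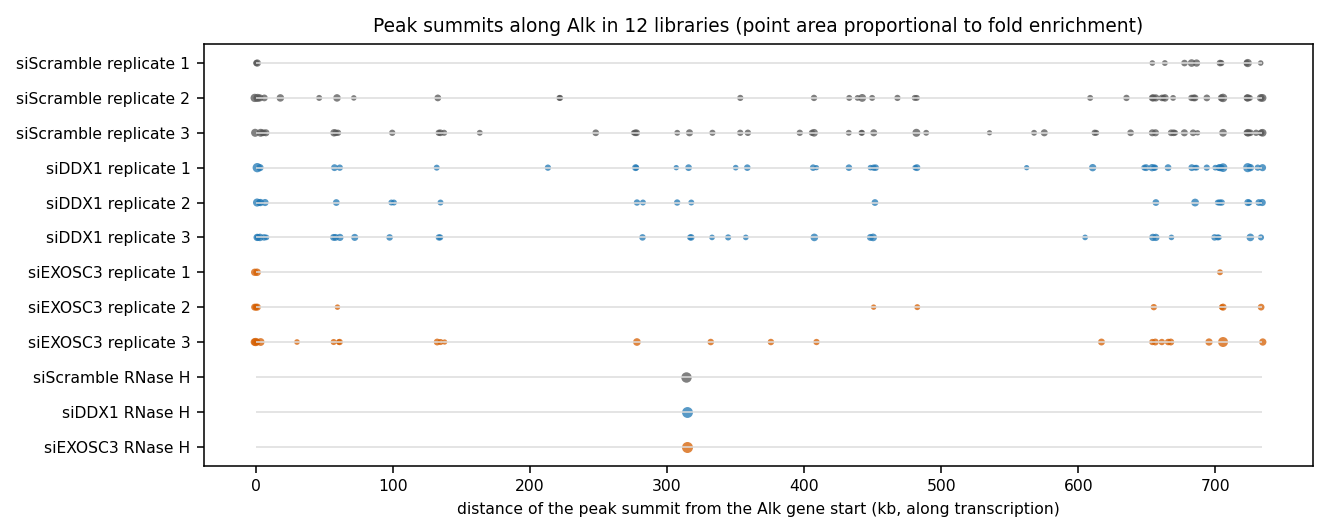
Summits of peaks along Alk (x axis, kb from the gene start in the direction of transcription) in 12 libraries (y axis), with point area proportional to fold enrichment. Over the 9 untreated libraries 52 summits lie in the first 100 kb and 95 in the last, with 2 and 1 in siEXOSC3 replicate 1, and each RNase H library holds 1 summit near 314 kb.

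Peaks were not spread evenly along Alk. With the 1000-base flanks included, the last 100 kb of the gene, which hold 21 of its 29 exons (the tyrosine kinase domain is encoded towards this end), held 10.5 peaks per 100 kb and library, the first 100 kb 5.72 and the stretch between them 1.81. In the last 100 kb, siScramble libraries held 10, 19 and 17 summits, siDDX1 libraries 19, 9 and 8, and siEXOSC3 libraries 1, 4 and 8. In the first 100 kb the counts of the groups overlapped, at 2, 8 and 9 in siScramble, 4, 6 and 10 in siDDX1 and 2, 4 and 7 in siEXOSC3. Between the ends they ran from 0 to 27, with 0 in siScramble replicate 1 and siEXOSC3 replicate 1.

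The region at the gene start of Alk (chr17:72949398-72954064) was the one called in 9 of 9 untreated libraries. It spans the gene start and a coding exon. Its ends are restriction cuts, an EcoRI site at position 3652 from the gene start and an XbaI site at position −1015, each a peak edge in 6 of 9 libraries. Its highest fold was 6.44, 8.28 and 7.84 in siScramble, 10.5, 7.99 and 6.83 in siDDX1 and 6.83, 6.12 and 8.36 in siEXOSC3. These ranges overlapped, and limma gave an adjusted p of 0.432 for any difference between groups.

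At Alk, 4 regions were called in every library of one group and in none of another. Of these, 3 were called by 3 of 3 siScramble and by 0 of 3 siEXOSC3 libraries, where 0.512% of all regions showed this pattern. They lie at chr17:72229134-72230772, over coding exons, and at chr17:72266063-72267997 and chr17:72268802-72270607, both in introns, and siDDX1 libraries called them in 2, 2 and 1 of 3. The fourth, chr17:72227382-72228790 in an intron, was called in 3 of 3 siDDX1 libraries, 2 of 3 siScramble libraries and 0 of 3 siEXOSC3 libraries, a pattern of siDDX1 against siEXOSC3 found at 0.393% of all regions. All 4 lie in the last 100 kb. The region over coding exons had folds of 8.20, 6.81 and 7.23 in siScramble and of 10.0 and 6.15 in siDDX1 replicates 1 and 2. Of the 23 Alk regions called in 3 or more libraries, 9 were called in no siEXOSC3 library, 1 in no siScramble library and 0 in no siDDX1 library. Of all 27345 regions called in 3 or more untreated libraries, 8.77% were called in no siEXOSC3 library, 6.36% in no siScramble library and 7.85% in no siDDX1 library. These shares were not matched on peak strength or on the number of libraries that called a region, and the Alk regions share 1 gene. The bases around the median summit of that coding-exon region, themselves intronic (chr17:72229409-72229528, minus strand), hold an EcoRI cut site (GAATTC) at their centre. They are shown because the call there differed between groups, with CG in capitals and the EcoRI site in small letters.
Alk region called in siScramble and not in siEXOSC3: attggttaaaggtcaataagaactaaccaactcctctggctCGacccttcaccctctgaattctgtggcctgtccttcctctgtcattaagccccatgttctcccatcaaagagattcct

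RNase H libraries called a different place in Alk. Each of them held 1 peak in the window, starting at 72637476, 72637470 and 72637652 in siScramble, siDDX1 and siEXOSC3 and ending at 72639048 in all 3, at a BsrGI site in an intron about 314 kb from the gene start. The folds were 13.1, 14.3 and 14.6, resting on 33, 30 and 30 fragments, and lay at the 95.8, 96.6 and 94.3 percentiles of their own lists. No peak of the 9 untreated libraries overlapped them. Alk was 1 of 2 members with a peak in an RNase H library (the other was Lin28b), against 13.5% of protein-coding genes, and the one member with a peak in 3 of 3, against 3.07%. The sequence at the median summit (chr17:72638803-72638922, minus strand) is shown because it was pulled down after RNase H digestion. It has 35.8% GC and no CG dinucleotide.
Alk region called after RNase H digestion: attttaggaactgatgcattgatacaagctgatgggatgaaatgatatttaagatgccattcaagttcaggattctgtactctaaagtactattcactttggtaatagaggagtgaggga

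By Pearson r of covered bases over the 9 untreated libraries, the genes whose pattern was most like that of Alk were Tmtc2 (r 0.988), Slc9a8 (r 0.988) and Acsl1 (r 0.986), of 11312 genes compared. All points share the same 9 libraries and their peak numbers.

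Phox2a, the homeobox gene of noradrenergic neurons, is a short gene on the plus strand (chr7:108966827-108971680) that lies tail to tail with and partly overlaps Inppl1. Its covered bases were 3748, 4691 and 4719 in siScramble, 5315, 3989 and 4389 in siDDX1 and 5407, 5621 and 5852 in siEXOSC3. Each siEXOSC3 library was thus above each library of both other groups. The means were 4386 ± 553, 4564 ± 680 and 5627 ± 223 (SD, n = 3 each), and the exact permutation test gave p = 0.0821 (adjusted p = 1). Every siEXOSC3 library exceeded every siScramble library at 2 members, Phox2a and Tbx2, and at 6.19% of the 13466 genes tested. Every siEXOSC3 library exceeded every siDDX1 library at 1 member, Phox2a, and at 4.94% of the genes tested. No member had every siScramble library above every siDDX1 (1.92% of the genes tested) or siEXOSC3 library (3.7%), or every siDDX1 library above every siScramble library (0.861%).

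Peaks at Phox2a formed 3 regions. The first (chr7:108965063-108968411) spans the gene start, with folds of 6.15 to 10.3 in the 9 libraries. In 7 of 9 libraries a peak edge there was an EcoRI cut at position −1534 from the gene start. The third (chr7:108969293-108983247) begins inside the gene and runs past its end into Inppl1, so signal cannot be assigned to either gene, and its main peak began at a BsrGI cut in 6 of 9 libraries and ended at an SspI cut in 6 of 9. Its folds were 18.2, 23.1 and 18.4 in siScramble, 25.7, 19.1 and 20.3 in siDDX1 and 29.6, 33.0 and 51.5 in siEXOSC3. All siEXOSC3 values were above all others. These folds were not centred, and the share of all regions called in 9 of 9 libraries with this order was not counted. The summit of the peak in siEXOSC3 replicate 3 rested on 86 fragments and lay in the downstream flank, while summits in siEXOSC3 replicates 1 and 2, on 55 and 53 fragments, lay inside the gene. After each library was centred on its median log2 fold, siEXOSC3 was 0.81 ± 0.206 (SE) log2 units above siScramble (limma adjusted p = 0.0707) and 0.57 ± 0.206 above siDDX1 (limma adjusted p = 0.178). The limma test of any difference had an adjusted p of 0.107. The second region, 255 bases in an intron, was called in siDDX1 replicate 1.

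**Figure D3:**
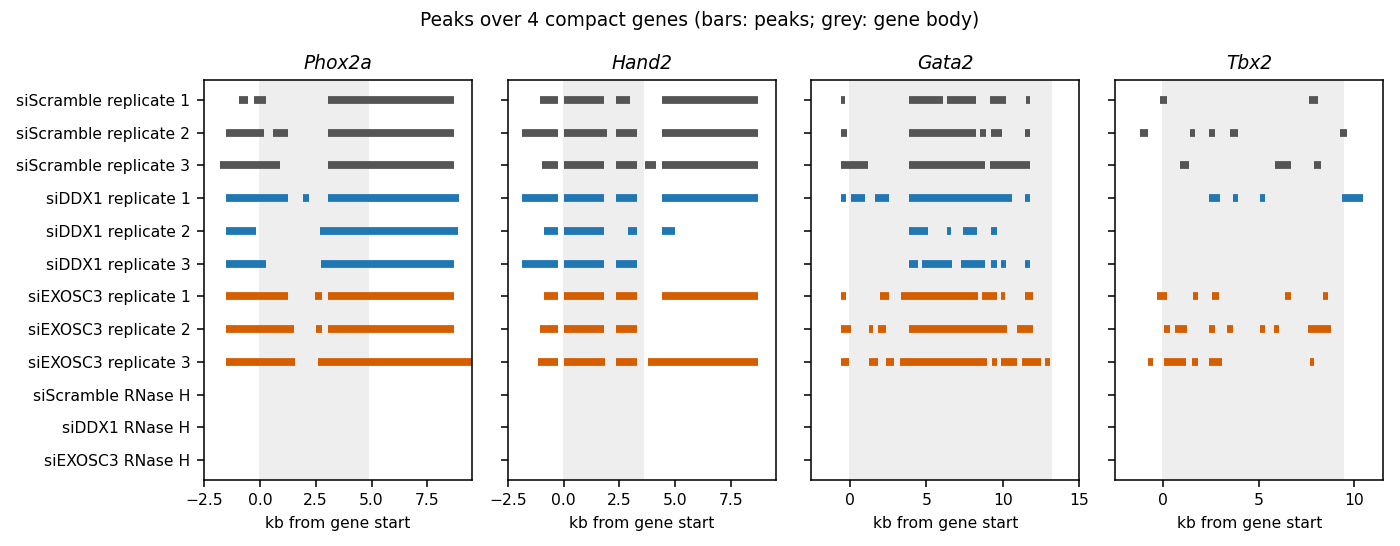
Peaks (bars) that overlap the windows of Phox2a, Hand2, Gata2 and Tbx2, in kb from the gene start (x axis), in 12 libraries (y axis), with the gene body in grey and peaks ended at the edge of the panel. Peak edges line up between libraries at Phox2a and Hand2, Tbx2 peaks are short and shift between libraries, and the RNase H libraries hold none.

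Hand2, a bHLH gene of sympathetic neuron development, lies on the plus strand at chr8:59799780-59803314. Its window touched 4 regions, all called in 9 of 9 untreated libraries. Covered bases were 3274, 3736 and 4073 in siScramble, 3588, 2917 and 3482 in siDDX1 and 3478, 3482 and 4288 in siEXOSC3. The groups overlapped, with means of 3694 ± 401, 3329 ± 361 and 3749 ± 467 (SD, n = 3 each) and an exact permutation p of 0.464 (adjusted p = 1). The region that begins at the gene start, over a coding exon, (chr8:59799784-59801731) had the highest folds, from 15.4 in siDDX1 replicate 2 to 43.1 in siEXOSC3 replicate 3, on 24 and 66 fragments.

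The edges of the Hand2 peaks fell on restriction cuts. All 35 peaks (100%) had at least 1 edge on a predicted cut of the 5 enzymes used (BsrGI TGTACA, EcoRI GAATTC, HindIII AAGCTT, SspI AATATT and XbaI TCTAGA, each a palindrome), against 56.1% of all 396 untreated member peaks and 56.5% of all 298649 untreated peaks. At the gene start, the upstream peak ended at an SspI cut in 9 of 9 libraries and the next peak began at a BsrGI cut in 9 of 9. The fragment of 265 bases between them, which holds the gene start itself, was called in 0 of 9. The cut sites that bound the calls of Hand2, Phox2a and Gata2 are shown on the plus strand with the recognition site in capitals.
Hand2 right edge upstream of the gene start (chr8:59799507-59799530, SspI): ttggggggaAATATTttaatagcg
Hand2 left edge at the gene start (chr8:59799774-59799797, BsrGI): agatgtagcTGTACAtggagatct
Hand2 left edge of the third region (chr8:59802127-59802150, BsrGI): tgaactcaaTGTACAgagctgctg
Phox2a left edge of the strongest peak (chr7:108969862-108969885, BsrGI): gggggacccTGTACAaatggtccc
Phox2a right edge of the strongest peak (chr7:108975522-108975545, SspI): tcagtggacAATATTagacattta
Gata2 left edge of the longest peak (chr6:88147718-88147741, HindIII): tggactcacAAGCTTctttctgga

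The share of restriction fragments called differed with their length. Only fragments that lie wholly within the 8 windows were counted. Of those of 2000 bases or more, 17 of 61 (27.9%) had their midpoint under a peak in at least 1 untreated library, against 11 of 502 (2.19%) of those under 200 bases. Fragments that cross a window edge were left out, such as the one of 3480 bases at the gene start of Phox2a. Over the whole genome the shares were 9.16% and 0.434%. Alk held most of the long ones, with 16 of 51 fragments of 2000 bases or more called and 4 of 384 under 200 bases. Wholly within the other windows 1 of 10 fragments of 2000 bases or more was called, at Gata2, and none of 5 at Lin28b, 3 at Gata3 and 1 at Isl1. The gene starts of Isl1 and Gata3 lie on fragments of 1433 and 703 bases, whose midpoints lay under no untreated peak. Those of Phox2a and Lin28b lie on fragments of 3480 and 1032 bases, whose midpoints lay under a peak in 7 and 6 of 9 libraries. For Alk (1202 bases) it was 6 of 9, for Gata2 (1818 bases) 2 of 9, and for Tbx2 (835 bases) and Hand2 (265 bases) 0 of 9.

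**Figure D4:**
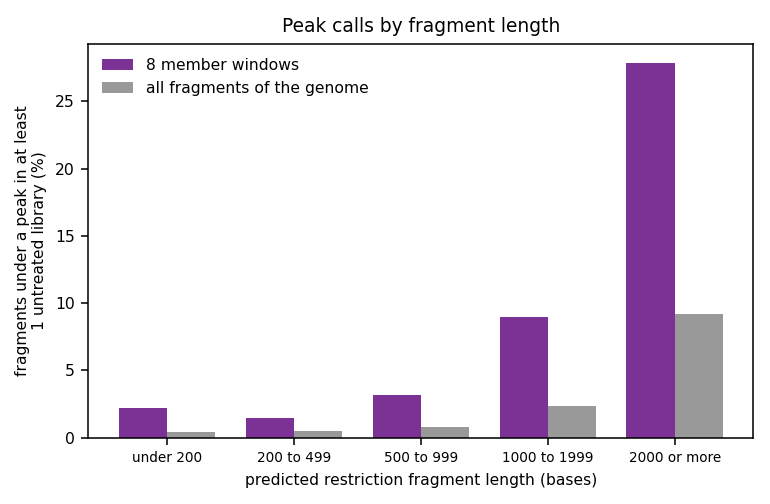
Share of predicted restriction fragments whose midpoint lay under a peak in at least 1 untreated library (y axis, percent, from 0) by fragment length (x axis), for fragments wholly within the 8 member windows (purple) and the genome (grey). The share runs from 2.19% under 200 bases through 1.46% from 200 to under 500 bases to 27.9% at 2000 bases or more in the member windows, where Alk holds 51 of the 61 longest fragments, and from 0.434% to 9.16% in the genome.

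Summits also fell on cut sites. Of the 396 member peaks in untreated libraries, 55 (13.9%) had their summit inside a recognition site of 6 bases, as did 16.9% of all untreated peaks, whereas such sites take up 1.08% of the genome. At Gata2 it was 16 of 47 and at Phox2a 0 of 23. A summit at the same base in 3 or more libraries was found at 4 places among the member peaks, and each lay at a cut site, shown in capitals.
Gata2 8041 bases after the gene start (chr6:88151911-88151940, plus strand, EcoRI): actttgatcattGAATTCtaggagtttggc
Alk 705578 bases after the gene start (chr17:72247456-72247485, minus strand, HindIII): gagtactttaatAAGCTTaatcactttgtg
Alk 1060 bases after the gene start (chr17:72951974-72952003, minus strand, XbaI): tcttgtttctctTCTAGAcgaccacctatt
Hand2 5831 bases after the gene start (chr8:59805596-59805625, plus strand, XbaI): attcacaagcgtTCTAGAcaggccggagcc

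The Gata2 summit was shared by 6 of 9 libraries, the summit in the last 100 kb of Alk by 5, and the other two by 3 each.

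Gata2, a zinc finger gene of sympathetic and blood lineages, lies on the plus strand at chr6:88143885-88157024. It held 5765, 6221 and 9375 covered bases among siScramble libraries, 9339, 2814 and 5194 in siDDX1 and 7705, 8914 and 10153 in siEXOSC3. The groups overlapped, with means of 7120 ± 1966, 5782 ± 3302 and 8924 ± 1224 (SD, n = 3 each) and an exact permutation p of 0.307 (adjusted p = 1). The region called in 9 of 9 libraries (chr6:88147150-88156374) covers most of the gene body. Its folds were 11.1, 11.1 and 13.8 in siScramble, 12.6, 8.57 and 10.3 in siDDX1 and 16.2, 15.2 and 23.4 in siEXOSC3. All uncentred siEXOSC3 values were above all others here too, and how many of all regions share this order was not counted. The difference was 0.49 ± 0.205 (SE) log2 units from siScramble after centring (limma adjusted p = 0.250), and the test of any difference had a limma adjusted p of 0.215. The region at the gene start (chr6:88143329-88145055) was called by every siScramble and siEXOSC3 library but by 1 of 3 siDDX1 libraries. An intronic region (chr6:88145129-88146753) was called by every siEXOSC3 library, 1 of 3 siDDX1 libraries and 0 of 3 siScramble libraries, a pattern of siEXOSC3 against siScramble found at 0.544% of all regions.

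Gata3, the related zinc finger gene (chr2:9778705-9811661, minus strand), and Isl1, a LIM homeobox gene (chr13:117088478-117099896, minus strand), were nearly devoid of peaks. Gata3 held 1 peak of 274 bases with a fold of 4.504 on 6 fragments (95% Poisson interval 2.202 to 13.1, counting error only), 14727 bases after the gene start in an untranslated exon. Isl1 held 1 peak of 811 bases with a fold of 5.70 on 8 fragments (3.45 to 15.8), in an intron. Both came from siEXOSC3 replicate 3, the library with the most peaks, and the other 8 untreated and 3 RNase H libraries had 0 covered bases at either gene.

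Tbx2, a T-box repressor (chr11:85646053-85655450, plus strand), carried short and weak peaks. Covered bases were 831, 1592 and 1656 in siScramble, 2121, 0 and 0 in siDDX1 and 1794, 3244 and 2626 in siEXOSC3. The siEXOSC3 libraries were above all siScramble libraries and overlapped siDDX1 replicate 1. The means were 1360 ± 459, 707 ± 1225 and 2555 ± 728 (SD, n = 3 each), with an exact permutation p of 0.0964 (adjusted p = 1). The 31 peaks had a median fold of 4.97 and a median of 8 fragments at the summit. They formed 9 regions, none of them called in 9 of 9 libraries. A region that lies mostly upstream of the window (chr11:85640555-85645535) was called in 8 of 9, among them 3 of 3 siDDX1 libraries. That region lies within 2610027K06Rik, a long noncoding RNA gene on the minus strand, so signal there cannot be assigned to Tbx2. The folds of this region in siDDX1 were 6.98, 4.30 and 5.82, and in siDDX1 replicates 2 and 3 its peaks lay outside the window. The region over the gene start (chr11:85645729-85647401) and one over coding exons (chr11:85653629-85654805) were each called in 3 of 3 siEXOSC3, 2 of 3 siScramble and 0 of 3 siDDX1 libraries, a pattern of siEXOSC3 against siDDX1 found at 0.506% of all regions. No member region was called in 3 of 3 siScramble and 0 of 3 siDDX1 libraries (0.403% of all regions) or in 3 of 3 siDDX1 and 0 of 3 siScramble libraries (0.2%). The siDDX1 library with peaks in the Tbx2 window, replicate 1, had a lowest expected background of 1.29 fragments at a summit, against 0.544 to 0.706 in the other untreated libraries. Whether that background bears on its Tbx2 peaks was not tested. Without that library the exact permutation p was 0.00714 for Tbx2 (adjusted p = 0.512) and 0.0250 for Phox2a (adjusted p = 0.512). The share of all genes with an unadjusted p under 0.05 in that setting was not counted, so these values cannot be read as particular to the 2 members. With any other single untreated library left out, the exact permutation p was 0.111 to 0.275 for Tbx2 and 0.075 to 0.182 for Phox2a.

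Lin28b lies on the minus strand at chr10:45096426-45206201. Its covered bases were 1041, 1575 and 1902 in siScramble, 2027, 1436 and 950 in siDDX1 and 1036, 1407 and 690 in siEXOSC3. The groups overlapped, with means of 1506 ± 435, 1471 ± 539 and 1044 ± 359 (SD, n = 3 each) and an exact permutation p of 0.421 (adjusted p = 1). Of 9 regions, the one at the gene start (chr10:45205300-45206487) was called in 9 of 9 libraries. It has 72.7% GC, higher than or equal to 99.7% of all regions, and its right edge was a HindIII cut in 8 of 9 libraries. Its folds were 5.86, 9.29 and 5.48 in siScramble, 10.9, 6.76 and 7.11 in siDDX1 and 9.08, 8.76 and 10.9 in siEXOSC3, with overlapping groups and a limma adjusted p of 0.444. The same region was called in 2 of 3 RNase H libraries, with folds of 4.35 in siScramble and 5.10 in siEXOSC3 on 12 and 10 fragments. The siScramble RNase H library held 4 further peaks in introns of Lin28b and the siEXOSC3 one 1, none of which overlapped an untreated peak, so its covered bases after RNase H were 1899, 0 and 590 in siScramble, siDDX1 and siEXOSC3.

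**Figure D5:**
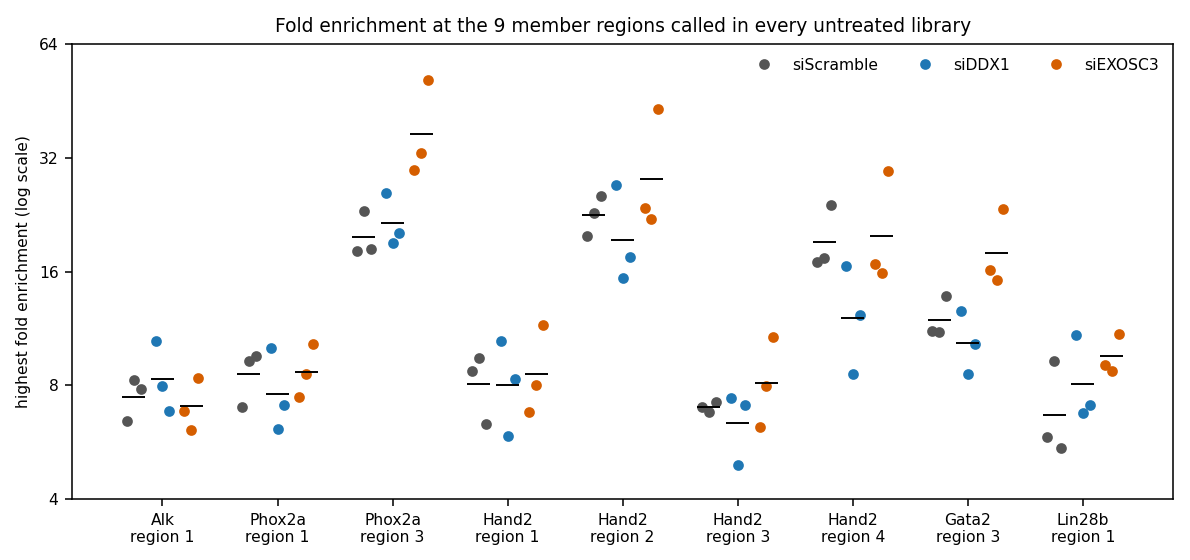
Highest fold enrichment (y axis, log scale) in each untreated library (points) at the 9 member regions called in 9 of 9, by gene and region (x axis), with group means on the log scale as lines. Folds are shown without centring. At Phox2a region 3 and Gata2 region 3 the siEXOSC3 points lie above all others, an order whose share over all regions was not counted. The top point comes from siEXOSC3 replicate 3 at 8 of 9 regions.

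At 8 of the 9 regions called in every untreated library the highest fold came from siEXOSC3 replicate 3, whose median fold over all such regions was 12.2, against 7.27 to 9.78 in the other libraries. After centring this held at 3 of 9. No member region passed a limma adjusted p of 0.05 for any group difference, against 0.228% of the 7460 regions tested, while 3 had an unadjusted p under 0.05 (Phox2a region 3, Gata2 region 3 and Hand2 region 4), against 15.9% of all. Hand2 region 4, downstream of the gene, differed by −0.55 ± 0.220 (SE) log2 units in siDDX1 minus siScramble (limma adjusted p = 0.515). In the other pairs no member region passed either, where 0.134% of regions did for siEXOSC3 against siScramble and 0.402% for siEXOSC3 against siDDX1, and none (0%) for siDDX1 against siScramble.

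After RNase H digestion Phox2a, Hand2, Gata2, Gata3, Isl1 and Tbx2 had no peak in 3 of 3 libraries. Averaged over groups, Alk held 12916 more covered bases without RNase H (exact permutation p = 0.0781, adjusted p = 0.139). Covered bases were higher without RNase H at 3 members, Phox2a, Hand2 and Gata2, with an adjusted p of 0.0409 in the two-sided exact permutation test over 64 assignments, as they were at 36.2% of the 14865 genes tested. This adjusted p goes with the smallest p that the design can give, 0.0156. With any 1 untreated library left out other than siScramble replicate 1, the 3 calls were lost, at adjusted p values of 0.0501 to 0.0601. Fewer assignments are then possible and the smallest p is larger, so the loss cannot be tied to any 1 library. RNase H libraries had fewer peaks in all, and the part of that in these values was not tested.

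Genes related to the members were described by the same measure, for which 49.9% of protein-coding genes had a peak in at least 1 untreated library and 26.2% in all 9. Of 13 noradrenergic regulators in the annotation, 9 had a peak in at least 1 untreated library and 5 in all 9, led by Klf7 (15323 ± 6046 covered bases) and Zfhx3 (9413 ± 4244) (SD, n = 9 each). Of 14 noradrenergic effectors it was 9 and 4, led by the receptor gene Ret at 29424 ± 5014, the neurotrophin receptor gene Ngfr at 8420 ± 2019 and the granule protein gene Chga at 4009 ± 1410 (SD, n = 9 each). Of 14 genes of the mesenchymal state it was 7 and 3, led by Fosl2 at 9365 ± 2184, Wwtr1 at 4283 ± 2084 and Vim at 3596 ± 222 (SD, n = 9 each).

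The ALK receptor pathway had 9 of 12 genes with a peak and 6 in all 9 libraries, led by Stat3 at 7933 ± 2453, Frs2 at 6191 ± 1866 and Grb2 at 5723 ± 2669 (SD, n = 9 each). In the LIN28 and let-7 axis 7 of 12 genes had a peak and 4 had one in all 9, led by Lin28a at 5589 ± 1164, Zcchc11 at 5291 ± 1644 and Zcchc6 at 2429 ± 1220 (SD, n = 9 each), the last 2 being uridylyltransferases. Of 12 GATA, T-box and LIM homeobox relatives, 5 had a peak and 1, Gata4 at 10705 ± 2387, had one in all 9 (SD, n = 9), while Tbx20 held 297 ± 388 and Lhx1 137 ± 272 (SD, n = 9 each). None of the genes in these 6 lists passed an adjusted p of 0.05 across the groups. An unadjusted exact permutation p under 0.05 was found for Chga (p = 0.0250), Gap43 (p = 0.0214) and Irs1 (p = 0.0357), and for 2.93% of all genes tested. More covered bases without RNase H, at an adjusted p of 0.0409, were found for 5 regulators, 3 effectors, 3 mesenchymal genes, 5 pathway genes, 4 of the let-7 axis and 1 relative, and for 36.2% of all genes tested.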

How the data were processed

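Groups follow the sample titles, and the members and gene lists were chosen with earlier results of these data known. Per the study's methods, the authors aligned reads to mm9 with Bowtie2 2.4.4 and called peaks per library with MACS2 2.2.6 against an input library. The deposited lists give each peak's fold enrichment over background as a linear ratio, a display score (not used) and its −log10 p-value and q-value. Read counts were not used here. In Python 3.11.15 with SciPy 1.17.1, bases covered by peaks were summed per gene and tested with exact permutations (the F statistic over 280 splits, or 64 RNase H assignments), adjusted over all genes by the Benjamini-Hochberg method. Overlapping peaks from untreated libraries were joined as regions, and log2 fold at regions called in 9 of 9 was tested with limma 3.58.1 after centring each library. Fragments at a summit were the whole number that matched both the authors' fold and −log10 p, found for at least 99.4% of 2000 peaks per library within a relative tolerance of 0.001. Restriction edges and sequences came from the NCBIM37 genome. The code was tested on simulated data. All 8 members are named, with the 3 genes of each list that have the most covered bases (1 of them is not reported here), and regions called in 3 or more libraries are named where a result turns on them. Alternatives were gene bounds, a stricter q-value, joined peaks, equal peak numbers, other scalings of fold, a replicate block and leaving out each library.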

Additional observations from a re-analysis of the deposited data

How the results depend on the processing

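No called difference changed sign. The difference in log2 fold between siEXOSC3 and siScramble, not called at any member region, changed sign in 9 alternatives at 3 regions where it was −0.07 to 0.0013 (Hand2 regions 1 and 4 and Phox2a region 1), to values between −0.22 and 0.10. Across the groups, none of 115 alternative tests of covered bases (Gata3 gave no value in 3 settings and Isl1 in 2, for want of peaks) and none of 117 of fold brought a member to an adjusted p of 0.05. The number of members with an unadjusted p under 0.05 went from 0 to 1 with no extension of the gene bounds (Tbx2, exact permutation p = 0.0286). With the bounds extended by 5 kb it was 0, and the exact permutation p for Tbx2 was 0.232. In that setting 6 members, against 5 in the main one, had a peak in every untreated library. The number with an unadjusted p under 0.05 ranged from 0 to 2 when 1 library was left out (Phox2a and Tbx2, without siDDX1 replicate 1). The share of all genes with such a p was not counted in these alternatives. All-or-none member regions numbered 7, and 4 with a −log10 q of at least 5, 4 with peaks up to 1000 bases apart joined, and 7 to 22 when 1 library was left out, where a group of 2 meets the rule more easily. The RNase H calls numbered 3, and 0 to 3 when 1 untreated library was left out, where the smallest possible p is larger. Lin28b passed the RNase H test at a −log10 q of at least 5 (adjusted p = 0.0457). Same-numbered libraries did not deviate together (correlations of −0.153 to 0.092), so the numbers were not taken as pairs. With the replicate block, 36 splits gave exact permutation p values of 0.25 for Alk, 0.25 for Phox2a and 0.222 for Tbx2, the adjusted p of Phox2a region 3 was 0.106, and no call changed. With 36 splits the smallest possible p is larger still, so the block could hardly have added a call of covered bases. Many peaks rest on 5 to 10 fragments, near the lowest that a list holds, so a missing call is not an absence of hybrids.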
